A study of Drosophila melanogaster with 12 samples.

Results

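Testes of bam mutant males were set against ovaries of bam mutant females in which Sxl had been targeted by RNA interference (RNAi), to ask which male features of RNA a gonad of a Sxl-depleted female still lacked. Libraries were chosen by title, as the 3 named for bam mutant males and the 3 named for Sxl RNAi females, 6 of the 12 libraries of the series. The other 6 libraries, 3 of ovaries from bam mutant females with RNAi against mCherry and 3 of ovaries from bam mutant females with no RNAi labelled, served to place each level. Every group carried the bam mutation, whose allele the labels do not give, and all flies were 1 to 3 days old and raised at 25 °C, with ovaries taken from virgins. mCherry is a fluorescent protein of no fly origin, so RNAi against it controls for the RNAi itself. The testes carried no labelled RNAi, so sex, organ and RNAi cannot be told apart between testes and Sxl RNAi ovaries. No source used here names the driver of the RNAi or the cells it acted in.

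In Drosophila, bam is switched on when the daughter of a germline stem cell leaves the niche, and gonads that lack it fill with early germ cells that do not differentiate. Sxl encodes an RNA-binding protein made in females. In somatic cells it directs the splicing of its own transcript and of tra, whose product steers the splicing of dsx and fru, and it blocks msl-2, so that the complex that doubles transcription of the single X is assembled in males. In germ cells Sxl is needed for female development, and loss of its function there lets male genes such as Phf7 and CG15930, the gene also known as Tdrd5l, be active. The counts are per gene and do not separate the splice forms of Sxl, tra, dsx, fru or msl-2, and whole gonads were sequenced, so a lower level can mean fewer cells of a type or less RNA per cell, which cannot be told apart.

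Levels are counts per 1000000 assigned reads (CPM) after scaling by trimmed mean of M values, with their SD over 3 libraries. Adjusted p-values and log2 fold changes with their standard error (SE) come from edgeR's quasi-likelihood test with Benjamini-Hochberg adjustment, and "higher", "lower" or "called" refers to an adjusted p under 0.05. Between 16152230 and 25097969 reads per library were assigned to genes. Bam testis 2 stood apart in its content of male accessory gland RNA, with 0.28% of reads on a list of such genes against 0.044% and 0.0135% in testes 1 and 3, and in its scaling factor of 0.8066, against 0.9629 to 1.071 in the other 11. Sxl RNAi ovary 1 stood apart in muscle RNA, 2.46% of reads against 1.52% and 1.62% in ovaries 2 and 3.

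Of 9736 genes tested, 1959 were higher and 2045 lower in bam testes than in Sxl RNAi ovaries, 20.1% and 21.0% of the genes tested and 41.1% together. Among them 1004 were more than 2-fold higher and 1451 more than 2-fold lower, and the median log2 fold change of all genes was 0.03. The CPM of the groups did not overlap for 5512 genes (56.6%), with every testis above every Sxl RNAi ovary for 29.4% and below for 27.2%, so a lack of overlap is common here. Leaving out bam testis 1 reduced the counts to 1241 higher and 1345 lower, and leaving out Sxl RNAi ovary 2 or 3 reduced the higher genes to 1212 and 1064. With testis 2 and Sxl RNAi ovary 1 both left out, they were 2062 and 2205.

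**Figure D1:**
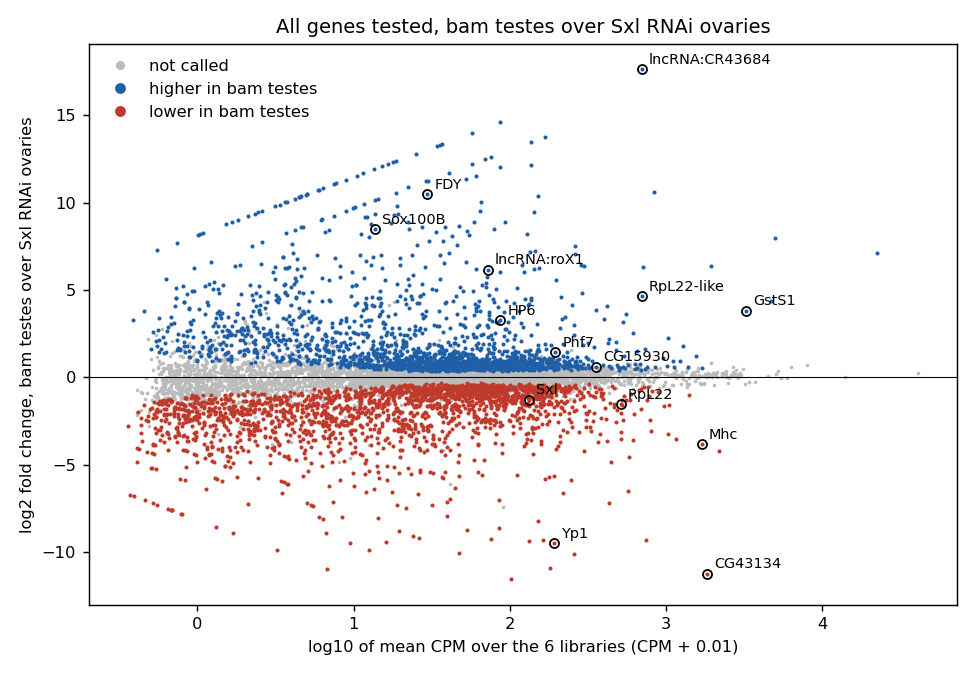
Log2 fold change of bam testes over Sxl RNAi ovaries (vertical axis) against the log10 of the mean CPM over the 6 libraries (horizontal axis), 1 point per gene tested. Blue points are the 1959 genes higher in bam testes and red points the 2045 lower, and circles mark genes described in the text, from lncRNA:CR43684 at the top to CG43134 near the bottom.

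Sxl itself, the target of the RNAi, was lower in testes than in the ovaries that had been depleted of it. Sxl (FBgn0264270, X:7074550-7098053 of BDGP6) had 64.1, 47.5 and 124 CPM in bam testes, against 140, 198 and 224 CPM in Sxl RNAi ovaries. The mCherry RNAi ovaries held 500, 511 and 534 CPM and the bam ovaries 474, 463 and 377 CPM. The testes lay below the Sxl RNAi ovaries with no overlap, and both lay below all 6 control ovaries. The log2 fold change of testes over Sxl RNAi ovaries was -1.27 (SE 0.38, adjusted p = 0.0338). That call was lost without any 1 library other than testis 3, with adjusted p up to 0.12. Males transcribe Sxl without making the female protein, so reads in testes do not measure Sxl protein. Sxl RNAi over mCherry RNAi ovaries gave -1.44 (SE 0.18, adjusted p = 0.0466), a call that held in 6 of 13 alternatives.

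Below Sxl in the hierarchy, 3 genes were lower in testes. The splicing regulator tra averaged 12.1 ± 1.83 CPM in bam testes (SD, n = 3), against 23.0, 21.8 and 21.1 CPM in Sxl RNAi ovaries (log2 fold change -0.88, SE 0.17, adjusted p = 0.00634). The transcription factor gene dsx, which sets sexual traits of the soma, had 18.1, 19.3 and 31.5 CPM in testes and 62.4, 62.1 and 74.3 CPM in Sxl RNAi ovaries (-1.55, SE 0.24, adjusted p = 0.00286). The transcription factor gene fru, known for male courtship, had 8.31, 4.76 and 13.6 CPM in testes and 36.5, 40.4 and 43.5 CPM in Sxl RNAi ovaries (-2.19, SE 0.36, adjusted p = 0.0037). In all 3 the groups did not overlap, and the Sxl RNAi ovaries lay nearer to the mCherry RNAi ovaries, whose means were 25.7 CPM for tra, 58.5 CPM for dsx and 34.0 CPM for fru. The gene dsx shares 169 exonic bases with lds on the other strand, which stood at 140 and 143 CPM in testes and Sxl RNAi ovaries, and these libraries do not record the strand. Of the 13 hierarchy and partner genes tested of 14 in the files, 4 were lower and none was higher, with a median of -0.12. The 4 include Sxl itself, and over all genes tested 21.0% were lower and 20.1% higher. The partners in Sxl splicing fl(2)d, vir, snf, nito, Ythdc1 and Mettl3, the tra partner tra2, and the cofactors her and ix were not called, with log2 fold changes between -0.30 for snf and 0.12 for Mettl3, and snf was called lower without testis 2 (-0.54, adjusted p = 0.0163).

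Early male germline genes were mostly higher in testes than in Sxl RNAi ovaries, CG15930 by little and Phf7 and HP6 by more. Of 10 such genes, all tested, 7 were higher in testes and none was lower, with a median log2 fold change of 1.21. CG15930 (FBgn0029754, X:5315130-5317295 of BDGP6, minus strand), which encodes a Tudor-domain protein of male germ cells, had 420, 488 and 395 CPM in bam testes, against 226, 278 and 334 CPM in Sxl RNAi ovaries. In mCherry RNAi ovaries it had 13.5, 17.1 and 18.4 CPM, and in bam ovaries 21.6, 29.3 and 23.6 CPM. Every testis lay above every Sxl RNAi ovary, and the Sxl RNAi ovaries lay far above both control groups. The testes were 1.53-fold higher than the Sxl RNAi ovaries (log2 fold change 0.62, SE 0.19, 95% interval 0.17 to 1.06, adjusted p = 0.038). That difference lost its call without testis 1 or 2 or Sxl RNAi ovary 1 or 2 (adjusted p between 0.0511 and 0.102) and without testis 2 and Sxl RNAi ovary 1 together (0.41, adjusted p = 0.0705). Testes over mCherry RNAi ovaries gave 4.75 (SE 0.19, adjusted p = 2.12e-05) with the same testes (41.7% of 10022 genes were called in that comparison), and Sxl RNAi over mCherry RNAi ovaries gave 4.11 (SE 0.20, adjusted p = 0.000961), which held in 13 of 13 alternatives. CG15930 shares 61 exonic bases with CG4198 on the other strand, which averaged 4.4 CPM in testes and 1.91 CPM in Sxl RNAi ovaries.

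Phf7 (FBgn0031091, X:20160355-20165830), which encodes a chromatin reader that promotes male fate in germ cells, behaved otherwise. It had 297, 278 and 288 CPM in bam testes, against 82.2, 117 and 115 CPM in Sxl RNAi ovaries and means of 68.5 ± 11.4 CPM in mCherry RNAi and 69.0 ± 5.9 CPM in bam ovaries. The Sxl RNAi ovaries lay just above the control ovaries and far below the testes. Testes were 2.71-fold higher (log2 fold change 1.44, SE 0.17, adjusted p = 0.00101), a call kept in every alternative, and Sxl RNAi over mCherry RNAi ovaries gave 0.62 (SE 0.18, adjusted p = 0.255). Phf7 counts pool its transcripts, whose start sites are known to differ between the sexes.

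The largest difference in this group was that of HP6, which encodes a small HP1-family chromatin protein. HP6 had 136, 232 and 104 CPM in bam testes, against 13.0, 18.6 and 16.1 CPM in Sxl RNAi ovaries and a mean of 16.4 ± 2.61 CPM in mCherry RNAi ovaries. The Sxl RNAi ovaries matched the control range, and testes were 9.72-fold higher (log2 fold change 3.28, SE 0.33, adjusted p = 0.000519). The gene tut, whose product works with those of bam and bgcn to end the amplifying divisions of male germ cells, had 41.6, 46.4 and 35.7 CPM in testes and 19.6, 20.1 and 20.4 CPM in Sxl RNAi ovaries (1.02, SE 0.13, adjusted p = 0.00153). Residual bam transcript stood at 21.3, 27.4 and 21.1 CPM in testes and at 6.83, 8.41 and 6.71 CPM in Sxl RNAi ovaries (1.64, SE 0.19, adjusted p = 0.000819). None of these 3 genes overlapped between the groups. The exons of bam share 224 bases with those of CG11854 on the other strand, at 0.897 CPM in testes. The spermatocyte transcription regulator dany was higher too (1.61, SE 0.23, adjusted p = 0.00217), at 13.9 ± 1.94 CPM in testes and 4.44 ± 0.877 CPM in Sxl RNAi ovaries. The bam partner gene bgcn was called (0.72, SE 0.21, adjusted p = 0.032) but lost its call in 6 alternatives, with adjusted p up to 0.121. Not called were chinmo, a factor of male identity in cyst stem cells, at 22.8, 16.0 and 117 CPM in testes and 7.01, 25.0 and 26.3 CPM in Sxl RNAi ovaries (adjusted p = 0.234), as well as kmg (0.08, adjusted p = 0.879) and Rbp4 (-0.69, adjusted p = 0.324). In chinmo the testes ranged widely, and testis 3 alone stood above all the RNAi ovaries.

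**Figure D2:**
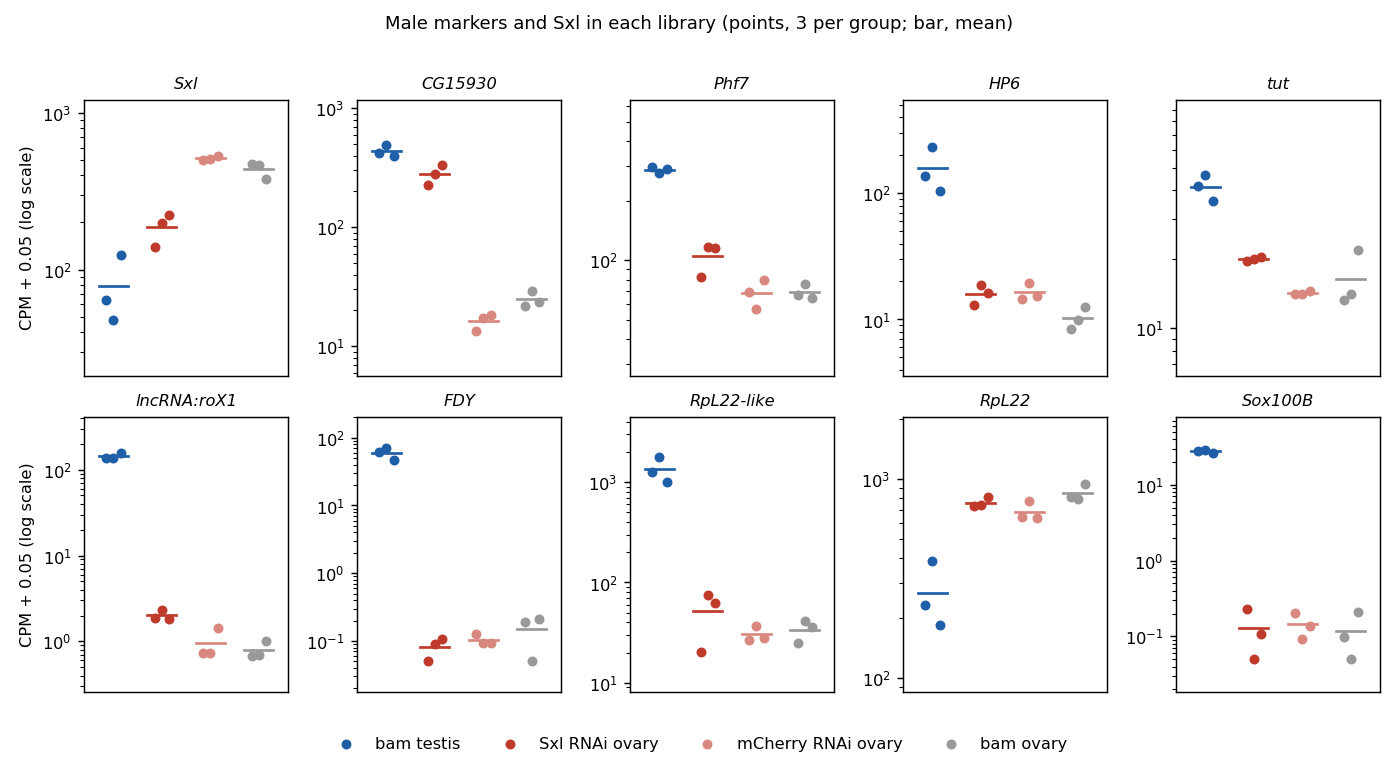
CPM on a log scale (vertical axis, with 0.05 added so that a count of 0 can be drawn) of Sxl and 9 other genes in each library, grouped as bam testes, Sxl RNAi, mCherry RNAi and bam ovaries. Points are libraries, 3 per group, and bars are means. CG15930 is the panel in which the Sxl RNAi ovaries, at 226 to 334 CPM, stand close to the testes. In the panels of HP6, FDY and Sox100B they stand with the control ovaries, and in that of lncRNA:roX1 just above them and far below the testes.

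A small set of genes moved under Sxl RNAi toward the level in testes. Sxl RNAi over mCherry RNAi ovaries called 12 genes higher and 9 lower of 10059 tested, 0.119% and 0.0895%, and bam testes over bam ovaries called 1594 higher and 1592 lower of 9738 (16.4% and 16.3%). These comparisons share no library. Of the 1594 genes higher in testes than in bam ovaries, 1371 were tested under Sxl RNAi, where 6 were higher and 2 lower, and their median log2 fold change was 0.012, against 0.007 over all 10059 genes. Of the 1592 lower genes, 1573 were tested, none was higher and 2 were lower (Sxl and CG7755), with a median of 0.050. The 12 and 9 genes called under Sxl RNAi fell to 1 higher and 2 lower without Sxl RNAi ovary 2 or 3 or mCherry RNAi ovary 1, and to 2 and 2 without mCherry RNAi ovary 3. DESeq2 called 170 and 157. Testes over Sxl RNAi ovaries and Sxl RNAi over mCherry RNAi ovaries use the same Sxl RNAi libraries, so their values are placed side by side for each gene below without a further comparison.

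The 6 genes were CG15930, dhd, CG11327, CG12728, CG10802 and Cmtr1, all X-linked apart from CG11327. CG11327 had 88.3, 117 and 80.0 CPM in bam testes, 23.7, 26.6 and 27.5 CPM in Sxl RNAi ovaries and 7.33, 7.59 and 8.56 CPM in mCherry RNAi ovaries. The 3 groups formed 3 steps without overlap. Testes over Sxl RNAi ovaries gave 1.85 (SE 0.18, adjusted p = 0.000406) and Sxl RNAi over mCherry RNAi ovaries gave 1.74 (adjusted p = 0.00548, held in 9 of 13 alternatives). The germline thioredoxin gene dhd, known for its role in the early embryo, likewise stood in steps, at 76.9, 101 and 65.5 CPM in testes, 33.7, 29.2 and 30.4 CPM in Sxl RNAi ovaries and 8.78, 11.3 and 11.9 CPM in mCherry RNAi ovaries. Its log2 fold changes were 1.36 for testes over Sxl RNAi ovaries (SE 0.18, adjusted p = 0.00163) and 1.56 for Sxl RNAi over mCherry RNAi ovaries (adjusted p = 0.0132, held in 8 of 13 alternatives, with adjusted p up to 0.206), and the bam ovaries, at 16.2, 23.9 and 26.6 CPM, lay above the mCherry RNAi ovaries. These 2 genes thus still differed between testes and Sxl RNAi ovaries.

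The other 3 genes did not differ by the test between testes and Sxl RNAi ovaries. CG12728 had 56.5, 63.2 and 50.0 CPM in bam testes, 39.8, 46.6 and 45.5 CPM in Sxl RNAi ovaries and a mean of 18.4 ± 1.23 CPM in mCherry RNAi ovaries (testes over Sxl RNAi 0.34, 95% interval 0.02 to 0.66, adjusted p = 0.0878; called, at an adjusted p of 0.0437, without testis 3). CG10802 had 42.8, 51.0 and 36.3 CPM in testes, 39.6, 36.4 and 32.9 CPM in Sxl RNAi ovaries and a mean of 19.5 ± 1.36 CPM in mCherry RNAi ovaries (0.23, 95% interval -0.15 to 0.61, adjusted p = 0.283). Cmtr1, a gene for an mRNA cap methyltransferase, had 99.3, 80.9 and 90.2 CPM in testes, 76.5, 78.0 and 81.5 CPM in Sxl RNAi ovaries and a mean of 42.5 ± 5.24 CPM in mCherry RNAi ovaries (0.17, 95% interval -0.13 to 0.48, adjusted p = 0.321). For CG10802 and Cmtr1 the groups overlapped, for CG12728 they did not, and the intervals of all 3 exclude a difference of 2-fold between testes and Sxl RNAi ovaries. Their calls in Sxl RNAi over mCherry RNAi ovaries (adjusted p between 0.0113 and 0.0466) held in 8, 5 and 6 of 13 alternatives.

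Outside that set, several genes showed the same order of means without a call under Sxl RNAi. TrxT, the testis thioredoxin gene that lies next to dhd (X:5310581-5311888, with dhd at X:5312171-5313125), averaged 3.15 ± 0.814 CPM in bam testes, 2.79 ± 0.442 CPM in Sxl RNAi ovaries and 1.02 ± 0.223 CPM in mCherry RNAi ovaries. Testes and Sxl RNAi ovaries overlapped (0.15, adjusted p = 0.711), and Sxl RNAi over mCherry RNAi ovaries gave 1.46 (adjusted p = 0.133). eIF4E3, a cap-binding translation factor of spermatocytes, averaged 136 ± 31.9 CPM in testes, 101 ± 5.52 CPM in Sxl RNAi and 54.7 ± 10.7 CPM in mCherry RNAi ovaries (testes over Sxl RNAi 0.40, adjusted p = 0.136; Sxl RNAi over mCherry RNAi 0.91, adjusted p = 0.0849). By these coordinates TrxT and dhd lie just beside CG15930 on the X chromosome.

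**Figure D3:**
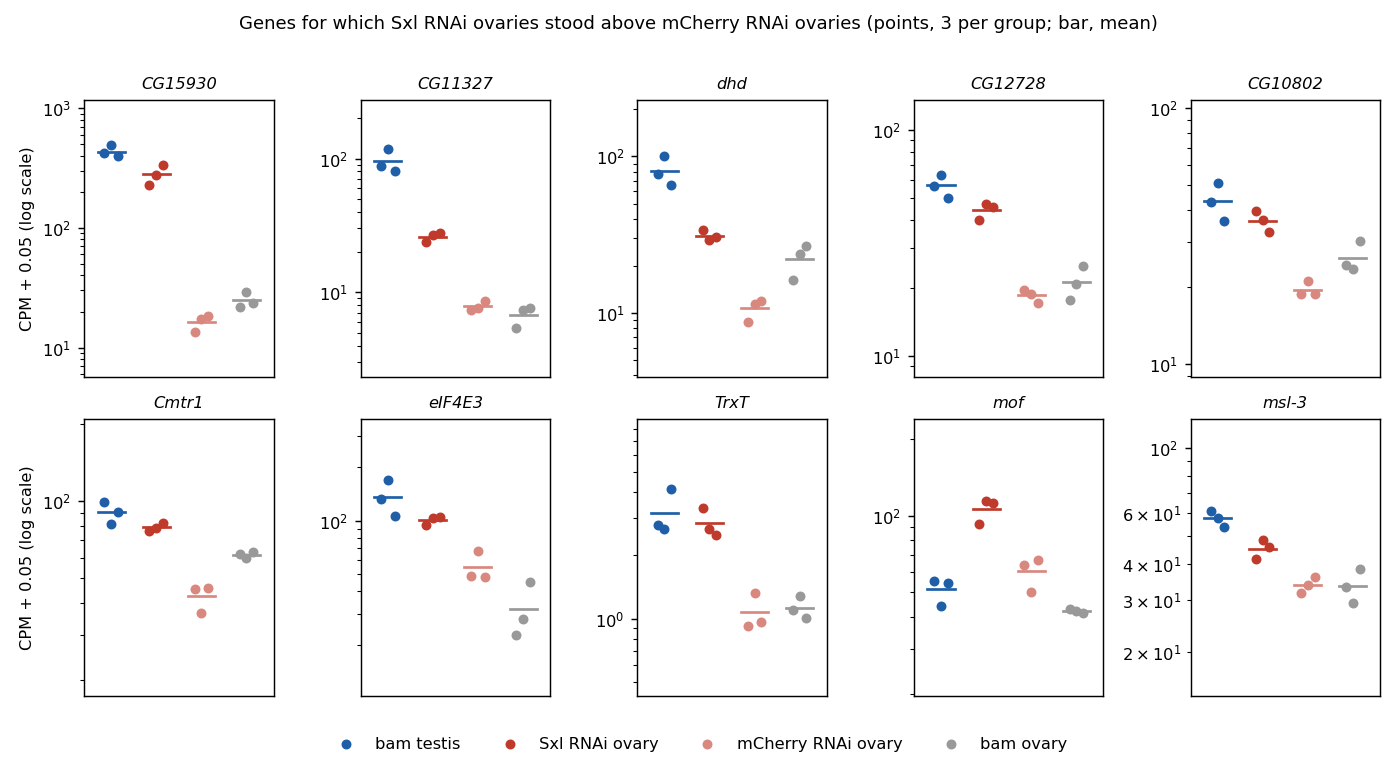
CPM on a log scale (vertical axis, with 0.05 added) in each library of 10 genes for which the Sxl RNAi ovaries stood above the mCherry RNAi ovaries, grouped as bam testes, Sxl RNAi, mCherry RNAi and bam ovaries. Points are libraries, 3 per group, and bars are means. CG11327 and dhd form steps from testes down to mCherry RNAi ovaries, CG10802 and TrxT overlap between testes and Sxl RNAi ovaries, and mof is highest in Sxl RNAi ovaries.

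To see how far genes of the strongest male bias were approached, genes called and more than 4-fold higher in bam testes than in bam ovaries, and at 5 CPM or more in every testis, were taken, a choice made after values were seen. They numbered 365, 3.75% of the 9738 genes tested, and 62 of them were X-linked. The mean of the Sxl RNAi ovaries lay within 2-fold of the testis mean for 8 of them (2.19%), and that of the mCherry RNAi ovaries, set against the same testes, for 7 (1.92%). The median log2 ratio of testes was 3.40 over Sxl RNAi ovaries and 3.48 over mCherry RNAi ovaries. The set was chosen on these same testes, so they stand high by selection in both ratios. It also takes in accessory gland genes such as Acp53C14a, at 19.5, 386 and 10.6 CPM in testes, so it is not a set of germline genes alone. The 8 were Abd-B, CG3603, CG15930, CG7778, CG13116, Sox102F, CG31100 and eIF4E3, of which Abd-B, CG7778, CG13116 and CG31100 were also among the 7 for mCherry RNAi ovaries. CG3603, X-linked, had 40.7, 52.3 and 25.7 CPM in testes, 22.9, 19.8 and 19.1 CPM in Sxl RNAi ovaries and a mean of 9.59 CPM in mCherry RNAi ovaries (testes over Sxl RNAi adjusted p = 0.0288; Sxl RNAi over mCherry RNAi 1.12, adjusted p = 0.0748). Sox102F, a transcription factor gene on chromosome 4, averaged 23.7 CPM in testes, 14.3 CPM in Sxl RNAi ovaries and 7.18 CPM in mCherry RNAi ovaries, without a call under Sxl RNAi (adjusted p = 0.294).

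In the other direction 373 genes (3.83%) were called and more than 4-fold lower in bam testes than in bam ovaries, with 5 CPM or more in every bam ovary, and the Sxl RNAi ovaries came within 2-fold of the testes for 4 of them (1.07%), the mCherry RNAi ovaries for 7 (1.88%). Here the testes were low by selection. The 4 were trpl, CG15394, a Stellate family member and osk, which directs germ plasm assembly. The osk transcript had 0.478, 0.307 and 0.628 CPM in testes, 0.479, 0.849 and 1.06 CPM in Sxl RNAi ovaries, and means of 2.87 CPM in mCherry RNAi and 6.37 CPM in bam ovaries. Testes and Sxl RNAi ovaries overlapped (-0.75, adjusted p = 0.218), while Sxl RNAi over mCherry RNAi ovaries gave -1.82 with an adjusted p of 0.187.

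Of the 1594 genes higher in testes than in bam ovaries, 187 had a 95% interval of testes over Sxl RNAi ovaries that included 0. Those with the largest fold change over bam ovaries were LysE, CG15423, exex, CG31104, CG6834 and CG14257, all at low levels. In each of them 1 or more Sxl RNAi ovaries stood apart from the rest. CG6834 had 3.95, 6.14 and 3.19 CPM in bam testes and 6.53, 0.687 and 0.559 CPM in Sxl RNAi ovaries, and was called higher in testes without Sxl RNAi ovary 1 (2.77, adjusted p = 0.0066). CG15423 had 4.66, 6.52 and 2.46 CPM in testes and 0.3, 2.75 and 0.168 CPM in Sxl RNAi ovaries, and was called without ovary 2 (4.19, adjusted p = 0.00794). CG31104, at 1.14, 1.38 and 1.62 CPM in testes and 5.33, 0 and 0.0559 CPM in Sxl RNAi ovaries, was called higher in testes without ovary 1. CG15423 was called with the replicate number as a block too (2.72, adjusted p = 0.0229). The motor neuron factor gene exex had 0.957, 1.07 and 1.05 CPM in testes and 0.839, 1.5 and 0 CPM in Sxl RNAi ovaries (0.34, 95% interval -1.88 to 2.56).

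The noncoding RNAs of the male dosage compensation complex were abundant in testes and near the control level in Sxl RNAi ovaries. The X-linked roX1, which guides the complex along the X, had 136, 136 and 156 CPM in bam testes, against 1.8, 2.3 and 1.79 CPM in Sxl RNAi ovaries. Testes were 70.9-fold higher (log2 fold change 6.15, SE 0.18, adjusted p = 1.91e-05). The Sxl RNAi ovaries lay above the mCherry RNAi ovaries, at 0.687, 0.683 and 1.39 CPM, without overlap and without a call (1.11, adjusted p = 0.311). roX2, its partner RNA, had 5.86, 9.98 and 5.55 CPM in testes and 1.2, 0.566 and 0.783 CPM in Sxl RNAi ovaries (3.05, SE 0.42, adjusted p = 0.0017). The exons of roX1 share 392 of 5468 bases with ec on the other strand, which was lower in testes, at 16.9 CPM, than in Sxl RNAi ovaries, at 69.5 CPM.

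Unlike the RNAs, none of the protein genes of the complex was called higher in testes than in Sxl RNAi ovaries. The histone acetyltransferase gene mof had 55.6, 44.3 and 54.5 CPM in bam testes, against 92.6, 114 and 112 CPM in Sxl RNAi ovaries (log2 fold change -1.07, SE 0.15, adjusted p = 0.00219). The Sxl RNAi ovaries stood above the testes and above the mCherry RNAi ovaries, which had 64.2, 50.3 and 67.1 CPM (Sxl RNAi over mCherry RNAi 0.83, adjusted p = 0.113). The chromodomain gene msl-3 had 60.6, 57.6 and 53.5 CPM in testes and 41.4, 48.1 and 45.6 CPM in Sxl RNAi ovaries, without overlap (0.32, adjusted p = 0.0694; called by DESeq2, adjusted p = 0.0424, and with all 12 libraries in 1 fit, 0.0328). For msl-3 the means were 33.8 CPM in mCherry RNAi and 33.6 CPM in bam ovaries. Testes were called higher than both (0.77, adjusted p = 0.0028, and 0.77, adjusted p = 0.00729). Sxl RNAi over mCherry RNAi ovaries gave 0.43 for msl-3 (adjusted p = 0.188). The limiting subunit gene msl-2, whose RNA Sxl binds, was not called, at 20.1 ± 6.51 CPM in testes and 19.0 ± 3.29 CPM in Sxl RNAi ovaries (0.06, 95% interval -0.60 to 0.72, adjusted p = 0.886). Also not called were msl-1 (0.33; called without testis 2, 0.56, adjusted p = 0.0392), the helicase gene mle (0.03) and the X-binding factor gene Clamp (-0.10). Of the 8 genes of the list, all tested, 2 were higher and 1 lower, with a median of 0.19. The shares over all genes tested were 20.1% higher and 21.0% lower.

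Genes on the X were called lower in testes more often than higher. Of 1649 X-linked genes tested, 585 (35.5%) were lower and 163 (9.88%) higher, against 1378 (17.7%) and 1768 (22.7%) of the 7790 genes on the autosomal arms. The median log2 fold change was -0.42 for the X and 0.12 for the autosomal arms, and that of the X lay between -0.50 and -0.39 over the alternatives. Testes over mCherry RNAi ovaries and over bam ovaries, which share the testes, gave X medians of -0.37 and -0.41, and Sxl RNAi over mCherry RNAi ovaries gave 0.05. Chromosome 4 was lower still, with 36 of 82 genes lower (43.9%), 2 higher and a median of -0.69. Males carry a single X and females a pair, and gene dose and the differing tissue content of the gonads cannot be told apart here.

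Of 12 Y-linked genes in the files, FDY was the only one with enough reads to be tested. FDY had 60.7, 70.4 and 46.2 CPM in bam testes, against 0, 0.0404 and 0.0559 CPM in Sxl RNAi ovaries, which is 2816 counts against 2. The ratio of the groups, scaled, was 1709, with an exact 95% counting interval of 473 to 14122 (edgeR adjusted p = 2.06e-05), and FDY passed the filter through testes alone, which fixed its direction. FDY arose from vig2 on chromosome arm 3R, at 770, 941 and 654 CPM in testes and 595, 670 and 695 CPM in Sxl RNAi ovaries (adjusted p = 0.324), and no source used here says how reads that match both copies were counted. Of the 12 genes, 6 had no count in any testis, and 11 had none in any Sxl RNAi ovary.

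Genes that prepare the spermatocyte program were partly higher in testes. Of 15 spermatocyte regulators tested of 20 in the files, 7 were higher and 1 lower, with a median of 0.50. The meiotic arrest complex genes tomb, with 11.1, 15.2 and 10.3 CPM in bam testes and 4.97, 4.81 and 5.93 CPM in Sxl RNAi ovaries (1.19, SE 0.23, adjusted p = 0.00686), and mip40, with 80.4, 114 and 73.9 CPM against 45.1, 43.0 and 44.2 CPM (1.00, SE 0.18, adjusted p = 0.00592), were higher, as was vis (0.81, SE 0.17, adjusted p = 0.00893). The meiotic phosphatase gene twe rose to 44.4, 42.1 and 48.8 CPM in testes, against 22.1, 29.0 and 22.5 CPM in Sxl RNAi ovaries (0.86, SE 0.15, adjusted p = 0.00505). None of these 4 overlapped between the groups. The testis TAF gene nht was low in both, at 2.39, 4.45 and 2.83 CPM in testes and 0.419, 0.687 and 0.336 CPM in Sxl RNAi ovaries (2.68, SE 0.42, adjusted p = 0.00309), and the other called members were mia and tbrd-3, while wuc was lower. The filter set the direction of nht and tbrd-3, which passed it through testes, and of wuc, which passed it through Sxl RNAi ovaries. The arrest gene aly was at 17.4, 19.1 and 16.7 CPM in testes and 15.5, 19.4 and 17.4 CPM in Sxl RNAi ovaries, overlapping fully (0.00, adjusted p = 0.998), whereas comr, can and sa did not pass the filter.

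Genes of later spermatogenesis were near silence in both groups. Of 30 spermatid and sperm genes in the files, 6 were tested, and all 30 together held at most 0.00113% of reads in bam testes and 0.0016% in Sxl RNAi ovaries. Mst87F, a sperm tail gene, was higher in testes, at 1.14, 2.0 and 1.78 CPM against 0.0599, 0 and 0.112 CPM in Sxl RNAi ovaries, 79 counts against 3 (ratio 32.0, exact 95% counting interval 10.5 to 158; adjusted p = 0.00238). The spermatid tubulin gene betaTub85D (-2.42, adjusted p = 0.0198), the sperm cytochrome gene Cyt-c-d (-1.19, adjusted p = 0.0204) and r-cup (-0.86, adjusted p = 0.0255) were lower in testes, each losing its call in 4 or more alternatives, among them the omission of testis 1, Sxl RNAi ovary 2 or Sxl RNAi ovary 3, and their levels in testes did not exceed 6.29 CPM. Mst87F reached the filter on low counts, 0.571 CPM, in every library of the testes alone, and betaTub85D and Cyt-c-d in every library of the Sxl RNAi ovaries alone, so the direction of these 3 was set by the filter. Cyt-c-d shares 305 of 837 exonic bases with CG31808 on the other strand, which averaged 7.04 CPM in testes and 47.5 CPM in Sxl RNAi ovaries.

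A pair of ribosomal protein paralogs differed in opposite directions between testes and Sxl RNAi ovaries. RpL22-like, a paralog of RpL22 known from testis, had 1248, 1782 and 1004 CPM in bam testes, against a mean of 52.5 ± 28.9 CPM in Sxl RNAi ovaries and a mean of 30.3 ± 5.34 CPM in mCherry RNAi ovaries. Testes were 25.2-fold higher (log2 fold change 4.66, SE 0.55, adjusted p = 0.000953), and the 3 Sxl RNAi ovaries differed among themselves by more than the mCherry RNAi ovaries did, ovary 1 being the lowest. RpL22, the X-linked general gene, had 232, 386 and 183 CPM in testes and 726, 741 and 808 CPM in Sxl RNAi ovaries (-1.53, SE 0.29, adjusted p = 0.00618). Neither gene overlapped between the groups. RpL37-2 had 104, 179 and 73.3 CPM in testes and 4.07, 9.01 and 7.33 CPM in Sxl RNAi ovaries (4.09, SE 0.44, adjusted p = 0.000662), with its general partner RpL37-1 not called (-0.40, adjusted p = 0.309). Testis 2 was the highest testis in all 4, and the partner genes were chosen after values were seen. The cytochrome oxidase paralog COX4L was lower in testes, at 0.658, 0.384 and 0.786 CPM against 3.66, 3.23 and 3.19 CPM in Sxl RNAi ovaries (-2.45, adjusted p = 0.00185). Of 8 testis paralogs tested of 13 in the files, 2 were higher and 3 lower, against 20.1% and 21.0% of all genes tested. A single lower call was left without testis 1 or without any 1 of the Sxl RNAi ovaries. The 3 lower ones, COX4L, betaTub85D and Cyt-c-d, reached the filter in every Sxl RNAi ovary but not in every testis, so their direction was set by the filter.

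Female germline factors did not move as a block. Of 8, all tested, 4 were higher in testes and 3 lower (against 20.1% and 21.0% of all genes tested), with a median of 0.27. The higher ones were stil, a regulator of female germ cell development, at 110, 148 and 103 CPM in bam testes and 35.7, 39.1 and 39.7 CPM in Sxl RNAi ovaries (1.64, SE 0.17, adjusted p = 0.000592), dhd, and the germline ribosomal paralogs RpS19b (1.15, SE 0.24, adjusted p = 0.0097) and RpS5b (0.96, SE 0.28, adjusted p = 0.0311, lost in 5 alternatives). The lower ones were the female fertility gene otu, at 36.4, 27.4 and 47.9 CPM in testes and 65.4, 96.0 and 89.1 CPM in Sxl RNAi ovaries (-1.19, SE 0.25, adjusted p = 0.00907; 0.0504 without Sxl RNAi ovary 2), bru1, a translational repressor (-0.94, adjusted p = 0.0428, lost in 5 alternatives), and fs(1)Yb (-0.42, adjusted p = 0.038). The otu and stil groups did not overlap. The transcription factor gene ovo, which activates otu, had 140, 71.5 and 215 CPM in testes and 228, 330 and 341 CPM in Sxl RNAi ovaries, without overlap and without a call (-1.09, SE 0.39, adjusted p = 0.0638), and was called in 5 alternatives, for example without testis 3 (-1.54, adjusted p = 0.018). Lower calls in this list numbered 1 without testis 1 or Sxl RNAi ovary 3 and 0 without Sxl RNAi ovary 2. None of these genes apart from dhd was called in Sxl RNAi over mCherry RNAi ovaries.

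Transcripts of the oocyte were mostly lower in testes where they differed. Of 19 oocyte and maternal genes tested of 21 in the files, 7 were lower and 1 higher, with a median of -0.26, and 4 were lower without testis 1 or without Sxl RNAi ovary 2. The axis signal gene grk had 13.2, 13.5 and 13.4 CPM in bam testes and 35.8, 27.5 and 27.2 CPM in Sxl RNAi ovaries (-1.20, SE 0.16, adjusted p = 0.00147), and plu, which controls early embryonic cell cycles, had 1.2, 1.3 and 0.576 CPM against 4.13, 4.85 and 4.53 CPM (-2.17, SE 0.36, adjusted p = 0.00407). Its partner gnu (-1.19, SE 0.18, adjusted p = 0.00242), the dynein adaptor gene egl (-0.88, SE 0.18, adjusted p = 0.00832), the anterior determinant gene bcd (-1.57, SE 0.37, adjusted p = 0.0149), swa and bru1 were the other lower members, and the cyclin gene CycB3 was the higher one. Of 14 genes of female meiosis tested, 4 were higher (mei-W68, ord, sub and mtrm) and 3 lower (mei-9, hdm and nod, all X-linked), falling to 2, 2 and 1 higher and 1 lower each without testis 1, Sxl RNAi ovary 2 or Sxl RNAi ovary 3. Of all genes tested 20.1% were higher and 21.0% lower, and of X-linked genes 35.5% were lower, so these counts set the list little apart. The cohesion gene ord had 232, 209 and 240 CPM in testes and 103, 140 and 136 CPM in Sxl RNAi ovaries (0.82, SE 0.16, adjusted p = 0.00782), and nod, a kinesin for chromosomes that do not recombine, had 6.16, 6.91 and 8.07 CPM against 16.8, 20.4 and 16.8 CPM (-1.38, SE 0.19, adjusted p = 0.00169). In both genes the groups stood apart, in opposite directions. The exons of grk share 212 bases with Akap200, at 1345 CPM in testes and 894 CPM in Sxl RNAi ovaries, and those of nod share 146 with pkm, at 2.07 and 13.9 CPM, both on the other strand.

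Of 28 genes of the piRNA pathway, which silences transposons, 5 were higher and 5 lower, shares near those of all genes tested (20.1% and 21.0%), with a median of 0.02. The calls fell to 2 higher and 2 lower without testis 1 or Sxl RNAi ovary 2 or 3, to 2 and 3 without Sxl RNAi ovary 1, and to 3 higher without testis 3. The nuclear effector gene piwi had 330, 240 and 354 CPM in bam testes and 631, 808 and 790 CPM in Sxl RNAi ovaries (-1.29, SE 0.21, adjusted p = 0.00337), and the helicase gene armi had 273, 183 and 279 CPM against 627, 736 and 698 CPM (-1.51, SE 0.21, adjusted p = 0.00177). The nuclease gene zuc had 58.6, 81.1 and 55.6 CPM in testes and 21.6, 26.3 and 26.3 CPM in Sxl RNAi ovaries (1.37, SE 0.18, adjusted p = 0.0016), and rhi, which licenses piRNA clusters in germ cells, was 0.88 higher on the log2 scale (SE 0.17, adjusted p = 0.00646). The ping-pong gene aub was not called (-0.01, adjusted p = 0.971). Both piwi and armi act in somatic cells of the ovary as well as in germ cells, and somatic markers also differed between the groups. Their part in these values was not tested. Of 10 germ cell identity genes, 1 (vls) was higher and 1 (bru1) lower (none without testis 2, and 3 without testis 2 and Sxl RNAi ovary 1), and the list held 0.178%, 0.122% and 0.25% of reads in testes and 0.193%, 0.278% and 0.264% in Sxl RNAi ovaries, ranges that overlap.

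Genes of division and chromatin were called higher more often than lower with all 6 libraries. The shares over all genes tested were 20.1% higher and 21.0% lower. Of 21 cell cycle genes, 5 were higher, a share near that of all genes tested, and none was lower, with a median of 0.28. Without testis 3, 8 were higher. The 5 were the replication licensing genes dup (134, 128 and 129 CPM in bam testes and 69.4, 70.6 and 61.5 CPM in Sxl RNAi ovaries, 0.93, SE 0.12, adjusted p = 0.00157) and geminin (0.91, SE 0.16, adjusted p = 0.00506), the kinase gene Cdk2, the E2F repressor gene Rbf, and twe. Of 18 histone variant and chromatin genes, 6 were higher (His2Av, cid, E(z), esc, rhi and HP6) and 1 lower (HP1b), with a median of 0.40, and leaving out 1 library gave 4 to 9 higher and 0 to 3 lower. The 3 lower calls came without testis 3, and none was left without testis 1 or Sxl RNAi ovary 3. The centromeric histone gene cid had 27.0, 33.6 and 21.4 CPM in testes and 7.37, 8.33 and 6.26 CPM in Sxl RNAi ovaries (1.87, SE 0.22, adjusted p = 0.000893), about as low as in mCherry RNAi ovaries, at 7.38 CPM.

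**Figure D4:**
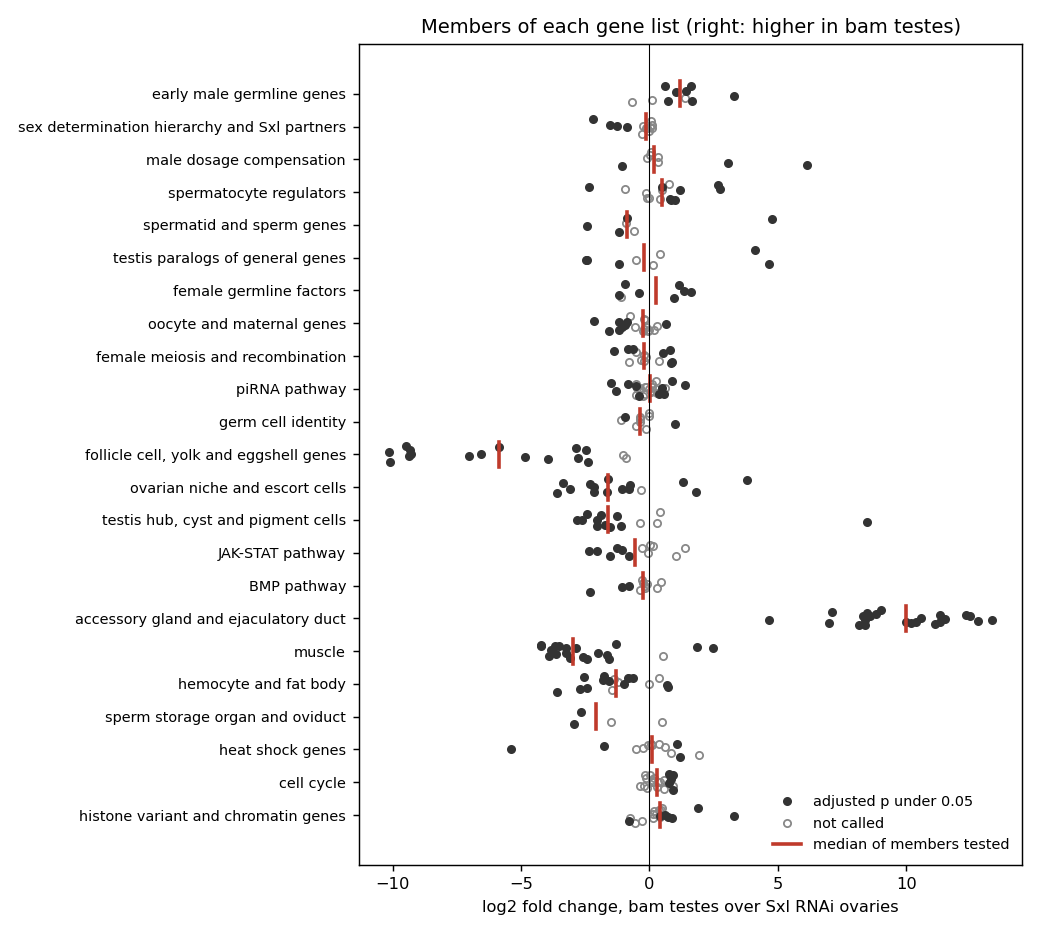
Log2 fold change of bam testes over Sxl RNAi ovaries (horizontal axis) of every tested member of each gene list (vertical axis). Filled points have an adjusted p under 0.05, open points do not, and red bars are the medians of the members tested. Follicle cell genes (median -5.84) and accessory gland genes (median 10.01) lie farthest from 0, and both lists were filled mainly by genes that passed the filter on low counts through 1 group.

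Genes of follicle cells, yolk and eggshell set the ovaries apart from the testes, and the Sxl RNAi ovaries kept them. The list held 0.0165% to 0.0186% of reads in bam testes and 0.505% to 0.534% in Sxl RNAi ovaries. The yolk protein gene Yp1 had 0.598, 0.691 and 0.367 CPM in testes, against 417, 375 and 367 CPM in Sxl RNAi ovaries (-9.49, SE 0.26, adjusted p = 1.48e-05). The vitelline membrane gene Vm26Aa had 0.299, 0.844 and 0.314 CPM in testes and 440, 511 and 605 CPM in Sxl RNAi ovaries (-10.14, SE 0.41, adjusted p = 2.1e-05). The eggshell gene dec had 6.88, 4.68 and 5.87 CPM in testes and 267, 375 and 344 CPM in Sxl RNAi ovaries (-5.84, SE 0.24, adjusted p = 2.17e-05). The mCherry RNAi ovaries, at 544, 502 and 192 CPM on average for Yp1, Vm26Aa and dec, were of the same order. Of 23 genes in the files 17 were tested, 11 of which reached the filter in Sxl RNAi ovaries and not in testes, so their direction was set by the filter. Of all 17, 15 were lower and none higher.

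Signals and markers of the somatic niche were mostly lower in testes, whichever sex they are known from. Of 15 genes of ovarian niche and escort cells, all tested, 11 were lower and 3 higher, with a median of -1.61. The lower members en and inv passed the filter through Sxl RNAi ovaries alone. The Hedgehog receptor gene ptc had 15.8, 10.1 and 14.7 CPM in bam testes and 61.3, 59.3 and 59.5 CPM in Sxl RNAi ovaries (-2.17, SE 0.19, adjusted p = 0.000272), and dally, a proteoglycan that spreads BMP signals, had 41.0, 27.8 and 46.8 CPM against 182, 195 and 197 CPM (-2.33, SE 0.22, adjusted p = 0.000355). The ligand gene hh went the other way, with 27.4, 28.8 and 14.8 CPM in testes and 7.43, 7.32 and 4.98 CPM in Sxl RNAi ovaries (1.82, SE 0.31, adjusted p = 0.0042), as did Wnt6 (1.30, SE 0.22, adjusted p = 0.004). GstS1, a glutathione transferase gene listed for escort cells, was higher in testes too, with 6015, 7429 and 4882 CPM against 474, 419 and 403 CPM in Sxl RNAi ovaries (3.80, SE 0.25, adjusted p = 9.66e-05).

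Of 14 genes of the testis hub, cyst and pigment cells, 10 were lower in testes, 1 was higher and the median was -1.63, so most markers on a list named for the testis were more abundant in the Sxl RNAi ovaries. The exception was Sox100B, a transcription factor gene of male-specific gonad cells, with 27.9, 28.4 and 25.9 CPM in bam testes, against 0.18, 0 and 0.0559 CPM in Sxl RNAi ovaries (8.47, SE 0.58, adjusted p = 0.00012). The mCherry RNAi ovaries held 0.153, 0.0427 and 0.0869 CPM, in the range of the Sxl RNAi ovaries. Sox100B passed the filter through testes alone and upd1 through Sxl RNAi ovaries alone, which fixed their direction. The transcription factor genes tj and eya, which gonadal somatic cells of both sexes express, had 36.7, 27.3 and 34.3 CPM and 60.9, 51.5 and 53.2 CPM in testes, against 158 to 237 CPM and 202, 183 and 157 CPM in Sxl RNAi ovaries (-2.63, adjusted p = 0.000199, and -1.73, adjusted p = 0.00031). The receptor gene Egfr was 5.38-fold lower (-2.43, SE 0.18, adjusted p = 0.00017) and the BMP modulator gene nord 3.71-fold lower (-1.89, SE 0.15, adjusted p = 0.000194). The Hox gene Abd-B, which patterns the posterior male gonad, had 23.1, 20.6 and 18.9 CPM in testes and 16.4, 16.3 and 17.8 CPM in Sxl RNAi ovaries (0.29, adjusted p = 0.149), and Wnt2, a ligand for male pigment cells, was not called either (0.41, adjusted p = 0.186). Both had lower means in bam ovaries, 4.62 and 24.3 CPM. In mCherry RNAi ovaries Abd-B averaged 12.2 ± 3.3 CPM, and Sxl RNAi over mCherry RNAi ovaries gave 0.48 without a call (adjusted p = 0.459). Of 12 JAK-STAT genes tested 6 were lower (3 without testis 1), among them the kinase gene hop (47.6, 27.8 and 64.8 CPM in testes and 239, 232 and 231 CPM in Sxl RNAi ovaries, -2.34, SE 0.30, adjusted p = 0.0014) and the ligand gene upd1 (-1.52, adjusted p = 0.0203). Of 11 BMP genes tested 3 were lower, a share near the 21.0% of all genes tested, namely dpp (-1.07, adjusted p = 0.0115, lost without testis 1), its receptor gene tkv (-0.78, adjusted p = 0.0151, lost without Sxl RNAi ovary 1 or 2) and dally. None was higher with all 6 libraries, and without testis 2 there were 2, among them the BMP receptor gene wit (0.68, adjusted p = 0.00338, against 0.46 and 0.127 with all 6 libraries). The wit call also appeared with all 12 libraries in 1 fit (adjusted p = 0.0447).

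Genes listed for the accessory gland, muscle, hemocytes and fat body, and oviduct differed between the groups. Whether their RNA came from the gonad or from organs beside it was not tested, nor was its part in the other results. Accessory gland and ejaculatory duct genes held 0.044%, 0.28% and 0.0135% of reads in bam testes and at most 0.000363% in Sxl RNAi ovaries. Of 30 in the files 23 were tested and all 23 were higher, 22 of them passing the filter through the testes alone, which fixed their direction. The count was 21 without testis 2, 20 without testis 2 and Sxl RNAi ovary 1, 9 with DESeq2, and 9 to 11 without any 1 of the Sxl RNAi ovaries. Acp36DE, for a seminal fluid protein that females receive, had 80.1, 796 and 32.7 CPM in testes and 0.12, 0.323 and 0.168 CPM in Sxl RNAi ovaries (10.38, adjusted p = 0.00436, and 7.98, adjusted p = 0.000388, without testis 2). Muscle genes held 0.197%, 0.194% and 0.219% of reads in testes, against 2.46%, 1.52% and 1.62% in Sxl RNAi ovaries, and 17 of 20 were lower and 2 higher, with a median of -2.96, though no member was higher without testis 1 or Sxl RNAi ovary 2 or 3. Act79B, 1 of the 2 higher muscle genes, passed the filter through testes alone, which fixed its direction. The myosin gene Mhc had 231, 201 and 245 CPM in testes and 4278, 2472 and 2762 CPM in Sxl RNAi ovaries (-3.83, SE 0.28, adjusted p = 0.000159). Of 18 hemocyte and fat body genes 10 were lower and 2 higher, against 21.0% and 20.1% of all genes tested. The list held 0.153% to 0.233% of reads in testes and 0.59% to 0.731% in Sxl RNAi ovaries. Without testis 1 or Sxl RNAi ovary 1, 6 of its genes were lower. Its lower members He and Lsp1alpha passed the filter through Sxl RNAi ovaries alone, which fixed their direction. Of 4 sperm storage organ and oviduct genes tested, the octopamine receptor genes Oamb and Octbeta2R were lower, and without testis 2 Hr39 was called higher (0.77, adjusted p = 0.039) and Tbh lower (-0.97, adjusted p = 0.0456). Of 13 heat shock genes 2 were higher (Hsp23 and Hsp27) and 2 lower (Hsp70Ba and Hsc70-1), against 20.1% and 21.0% of all genes tested, with no higher call left without Sxl RNAi ovary 2 or 3 and 4 without testis 2 and Sxl RNAi ovary 1. Hsp70Ba (-5.38) was at 56.7 CPM in Sxl RNAi ovary 1 against 12.1 and 4.64 CPM in ovaries 2 and 3. It passed the filter through Sxl RNAi ovaries alone, which fixed its direction. The family member Hsp70Bc went the other way without a call (log2 fold change 1.93). Without testis 2 and Sxl RNAi ovary 1, Hsp70Bc was called higher in testes (1.99, adjusted p = 0.0252).

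**Figure D5:**
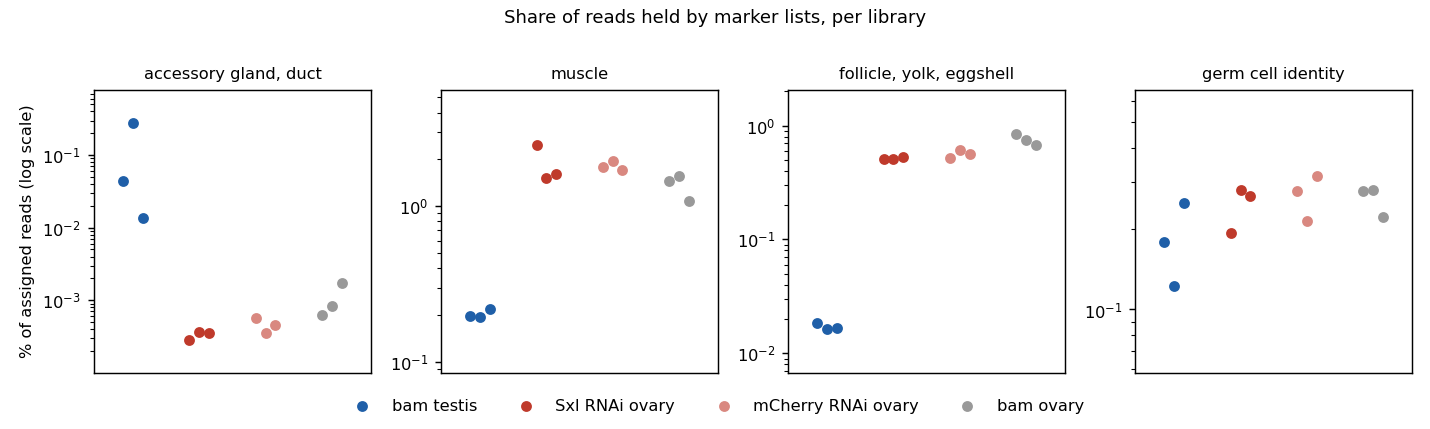
Share of assigned reads in percent on a log scale (vertical axis) held by 4 marker lists in each library, grouped as bam testes, Sxl RNAi, mCherry RNAi and bam ovaries. Points are libraries, 3 per group. Accessory gland genes take 0.0135% to 0.28% in testes, muscle and follicle cell genes take more in all ovaries, and germ cell identity genes overlap between the groups.

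The largest differences in favour of testes were of genes near silence in ovaries. The 10 largest had at most 1 count in Sxl RNAi ovaries. They passed the filter on low counts through testes alone, which fixed their direction. The noncoding RNA lncRNA:CR43684 had 1443, 2146 and 624 CPM in bam testes and no count in Sxl RNAi ovaries, at least 8982-fold higher if 3 counts are taken as the limit in each library. CG13728 had 84.3, 69.5 and 52.0 CPM in testes and no count in Sxl RNAi ovaries, at least 439-fold higher, and CG42828 had 172, 224 and 61.8 CPM against a single count (ratio 8471, exact 95% counting interval 1520 to 334623). In these 3 genes every testis was high. The other 7 of the 10 largest, CG43147, msopa, CG17097, Mst57Da, CG18284, Acp53C14a and Spn28F, stood far higher in testis 2 than in testes 1 and 3, as the accessory gland genes did, and were still called without testis 2, with log2 fold changes of 9.31 to 11.48, against 12.21 to 14.59 with it. The gene msopa, for instance, had 16.8, 316 and 10.6 CPM in testes, and the calls of CG43147, msopa and CG18284 were lost without any 1 of the Sxl RNAi ovaries (adjusted p up to 0.0756), and those of Mst57Da and Acp53C14a without Sxl RNAi ovary 1 (0.054 and 0.0582). In all, 25 genes reached 1 CPM in every testis with no count in Sxl RNAi ovaries, 21 of them protein coding and none X- or Y-linked, and 2 of them had no count in either control group of ovaries.

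In the other direction 5 genes reached 1 CPM in every Sxl RNAi ovary with no count in testes, Osi19, eloF, CG12540, CG34377 and CG43135. Osi19 had 13.5, 16.0 and 11.2 CPM in Sxl RNAi ovaries and was at least 72.0-fold lower in testes. CG43134, on the X, had 1.55, 2.53 and 0.681 CPM in bam testes, against 4894, 2690 and 3385 CPM in Sxl RNAi ovaries (-11.23, SE 0.62, adjusted p = 5.92e-05). It stood at 4050 ± 1054 CPM in mCherry RNAi ovaries. CG13299 had 0.12, 0.307 and 0.157 CPM in testes and 536, 263 and 279 CPM in Sxl RNAi ovaries (-10.89, SE 0.52, adjusted p = 4.08e-05). The remaining 7 were Vm26Aa, Vml, Vm26Ab, Yp1, CG13793, CG13840 and the desaturase gene Fad2, the last with 2 counts in all testes, against 55.4, 35.9 and 5.76 CPM in Sxl RNAi ovaries. All genes named in this paragraph except CG43134 passed the filter through Sxl RNAi ovaries alone, so their direction was set by the filter.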

How the data were processed

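Per the labels, libraries were made from 200 ng of RNA of dissected gonads with an Illumina TruSeq v2 kit for polyadenylated RNA. Raw counts of reads per gene, as whole numbers, were deposited by the authors. The submitters' processing notes name the build BDGP6 and list DESeq, FastQC, HTSeq 0.9.1, TopHat2 2.1.1 and Bowtie2 2.2.9. How HTSeq treated strand and overlapping genes, and which annotation release it used, no source used here states. HTSeq's summary lines, 12% to 17.1% of the reads of a library, were left out. Symbols and positions of 17253 of 17559 gene IDs were taken from Ensembl's BDGP6 annotation, possibly of another release. No sequence was used.

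Groups and replicates came from the titles, and replicates are called biological by the labels. No pair of libraries of a group agreed within counting noise (the lowest chi-square per degree of freedom was 9.98), and none was merged or dropped.

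Fits used the 6 libraries of the 2 groups compared, in R 4.3.3 with edgeR 4.0.16 (TMM, filterByExpr, robust quasi-likelihood F test). The SE is the size of the log2 fold change over the square root of F, and 95% intervals follow from it. Levels use scaling factors of all 12 libraries. Alternatives were DESeq2 1.42.0, other scalings and filters, all 12 libraries in 1 fit, a fold threshold, the replicate number as a block, and omission of each library. Omission of testis 2 with Sxl RNAi ovary 1, the sets more than 4-fold apart, and the paralog partners were added after the data were seen.

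The members and gene lists were chosen with earlier results of these data known, so lists are described by counts and medians without a list test. Of 407 list entries 397 matched. Genes named were Sxl, CG15930, Phf7, bam, all members of 3 lists, the 10 largest called changes per direction with no overlap and 5 CPM in every library of the higher group, up to 6 all-or-none genes per direction, the 5 members of each other list with the smallest p, and genes called in the same direction in testes over bam ovaries and in Sxl RNAi over mCherry RNAi ovaries. Further list members named to complete a count fall outside that rule, as do TrxT, aub, aly, Wnt2, Abd-B and osk. All of these were chosen after their values were seen. Genes called higher in testes than in bam ovaries whose interval over Sxl RNAi ovaries includes 0 were also computed.

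Intervals and floors from counts cover counting error only. On simulated counts for testes over Sxl RNAi ovaries (9590 genes, 100 genes changed per size), the test recovered 41% of 2-fold and 98% of 4-fold changes, and 14 of its 153 calls were false. A 2-fold difference could thus be missed in that simulation. Only those genes were changed there, whereas 41.1% of genes were called in the data. The adjustment of p-values depends on that share, so the recovery rates need not hold for the data.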

Additional observations from a re-analysis of the deposited data

How the results depend on the processing

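The counts of 1959 higher and 2045 lower genes became 2200 and 2234 with DESeq2, 1989 and 2023 with relative log expression scaling, 1881 and 2000 with upper-quartile scaling, 1935 and 1929 without a filter, 1836 and 1941 with at least 1 CPM in 3 libraries, and 2503 and 2488 with all 12 libraries in 1 fit. An absolute log2 fold change over 1 left 1004 and 1451. Leaving out 1 library gave 1064 to 2294 higher and 1345 to 2312 lower genes. With the replicate number as a block the counts were 1497 and 1792. The numbers did not pair the samples: deviations of testes and Sxl RNAi ovaries with the same number correlated at 0.012, -0.207 and 0.198, and not every library correlated best with its own number. Of 156 named genes tested 121 were called, and 91 of these kept the call in all alternatives run, up to 14 per gene, while 30 lost it in at least 1 and 14 others gained one. CG31104, not called (-0.37), reversed to 5.48 without Sxl RNAi ovary 1 (-0.99 to 5.48 over the omissions of 1 library) and to 5.52 without that ovary and testis 2, as its reads in Sxl RNAi ovaries lay almost all in ovary 1 (5.33, 0 and 0.0559 CPM). The median of all genes stayed between -0.04 and 0.04. For Sxl RNAi over mCherry RNAi ovaries (12 higher, 9 lower), the counts were 170 and 157 with DESeq2, 22 and 17 without a filter, 22 and 21 with all 12 libraries in 1 fit, and 1 and 2 with the replicate block, and 1172 genes had an unadjusted p under 0.05. For testes over bam ovaries (1594 and 1592) they were 826 and 870 with the block and 882 to 1717 and 1025 to 1822 with 1 library left out. Genes under about 0.571 CPM in both groups were not tested, which limits statements on Y-linked and sperm genes.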

Other observations

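Of 31 small nucleolar RNA genes tested, 22 were lower and none higher in bam testes than in Sxl RNAi ovaries, against 1890 lower and 1863 higher of 9198 protein-coding genes and 69 lower and 63 higher of 256 other noncoding RNA genes. Small nucleolar RNAs guide the modification of ribosomal RNA and mostly lie in introns of other genes. Of 7 small nuclear RNA genes tested, 4 were lower and none higher. The libraries were made for polyadenylated RNA, and whether these reads came from mature small RNAs or from other transcripts was not tested.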
